A study of Mus musculus with 32 samples.

Results

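The comparison covers whole testis of male NIH Swiss mice given 1 intravenous dose of CBL0137 at 90 mg/kg, set against testis of mice given the vehicle, 5% dextrose. Of the 32 arrays in the series, 4 carry it: 2 for testis at 90 mg/kg and 2 for testis after vehicle, all from mice aged 7 weeks with organs taken 24 hours after the dose. The 4 testis arrays at 30 and 60 mg/kg were used to estimate the spread and to set the doses side by side. Where the 90 mg/kg effect in testis differed from that in spleen, liver or lung was tested in 1 fit of all 32 arrays. The 30 and 60 mg/kg arrays of every organ entered the estimate of the spread in that fit. A gene was a member if its probe exceeded a signal of 8.3, the level that marks a signal above background, on at least 2 of the 8 testis arrays. By that rule 10713 of the 16590 genes on the array were members, each represented by its brightest such probe. Nothing in the labels tells if the paired arrays of a group were made from different animals, and every p-value therefore measures only the spread between these arrays, which may be technical.

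CBL0137 is a curaxin, a small molecule that binds DNA, loosens its packing around histones and traps FACT on chromatin. FACT is a histone chaperone that opens and rebuilds nucleosomes during transcription, and the study compared organs that contain FACT with organs that lack it. Curaxins are known from cell lines and other tissues to induce the interferon response and the p53 pathway, the former through antiviral genes such as Isg15 and Usp18, the latter through Cdkn1a and Mdm2. The testis holds dividing spermatogonia, meiotic spermatocytes and spermatids that replace histones by protamines, all inside tubules lined by Sertoli cells. Levels of the FACT subunits and of Kit were not analysed here.

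The arrays carried transcripts of the testis, and 1 vehicle array stood somewhat apart. Of the list genes on the array, 25 of 27 genes of elongating spermatids, 35 of 36 of round spermatids and 26 of 36 of spermatocytes were members, against 5 of 21 genes of epididymis epithelium. Membership alone does not set testis apart, since 23, 34 and 20 of these germ cell members also passed the filter in spleen. On the vehicle arrays the summed signal was 200514.8 and 197369.2 for the 27 genes of elongating spermatids. For the 21 genes of epididymis epithelium it was 274.2 and 307.1. Each array had 55.0% of its probes above the threshold, the deposited values having been normalized to a common distribution. Vehicle replicate 1 correlated with the other 7 testis arrays at Pearson r = 0.9825 to 0.985 over log2 values, while the other 21 pairs lay between 0.9866 and 0.9915. The vehicle pair differed by more than 4-fold for 12 genes, among them Tesk1, a testis kinase, with signals of 166.2 and 2150.3. Differences are given as log2 of signal plus 16, 90 mg/kg minus vehicle, ± SE, a scale that understates differences of dim genes. The number of arrays limits the precision.

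At 90 mg/kg a single gene passed the test, and it rose. Thap4 encodes a protein with a THAP zinc finger, whose human counterpart also carries a haem-binding domain. Its signals were 172.6 and 150.2 on the vehicle arrays and 620.3 and 719.5 on the 90 mg/kg arrays. Both 90 mg/kg arrays lay far above both vehicle arrays. The arrays at 30 mg/kg read 182.6 and 137.2, and those at 60 mg/kg read 136.3 and 165.1. The lower doses therefore overlapped the vehicle arrays. The fold over vehicle was 3.86 (log2 1.95 ± 0.18, limma adjusted p = 0.0253, n = 2 arrays a group). Thap4 was the only 1 of 10713 genes called, 0.00933% of those tested.

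The rise of Thap4 was also called directly against 30 mg/kg (log2 1.97, limma adjusted p = 0.0231). That difference uses no vehicle array, but it shares the 90 mg/kg arrays with the comparison against vehicle. Its test also takes the spread from all 8 testis arrays, so the call is not independent of the vehicle arrays. The call at 90 mg/kg was lost when any of 6 arrays was left out, while the difference itself stayed between 1.85 and 2.06 on the log2 scale. The limma adjusted p was 0.184 without vehicle replicate 1, 0.143 without vehicle replicate 2, 0.115 without 90 mg/kg replicate 1 and 0.25 without 90 mg/kg replicate 2. The gene called in place of Thap4 was Tesk1, lower, without vehicle replicate 1 and Psmd8, higher, without 90 mg/kg replicate 2. Without either array at 60 mg/kg the adjusted p of Thap4 was 0.0568, and without either at 30 mg/kg it was 0.032. On the 24 arrays of spleen, liver and lung the same probe read between 8.4 and 121.1, and its 90 mg/kg effect there was 0.14, -0.14 and -0.16 on the log2 scale. The difference between the testis effect and those effects was not past the threshold, with limma adjusted p of 0.169, 0.208 and 0.392. Thap4 is read by 1 probe on the array. The gene lies on mouse chromosome 1 at 93705391 to 93754838 (GRCm38.p6).

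Because Thap4 is the single called gene, the bases from 250 before to 50 after its upstream RefSeq start are given for reference (GRCm38.p6, chr1:93754789-93755088, minus strand). No base is in capitals, since the interferon-response motif searched further on has no match in this window.
Thap4: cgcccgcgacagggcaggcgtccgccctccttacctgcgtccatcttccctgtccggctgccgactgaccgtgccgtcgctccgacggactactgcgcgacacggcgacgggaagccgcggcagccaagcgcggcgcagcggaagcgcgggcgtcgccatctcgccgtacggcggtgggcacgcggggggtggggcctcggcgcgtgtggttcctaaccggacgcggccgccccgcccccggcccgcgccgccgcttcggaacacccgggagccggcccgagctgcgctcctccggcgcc

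**Figure D1:**
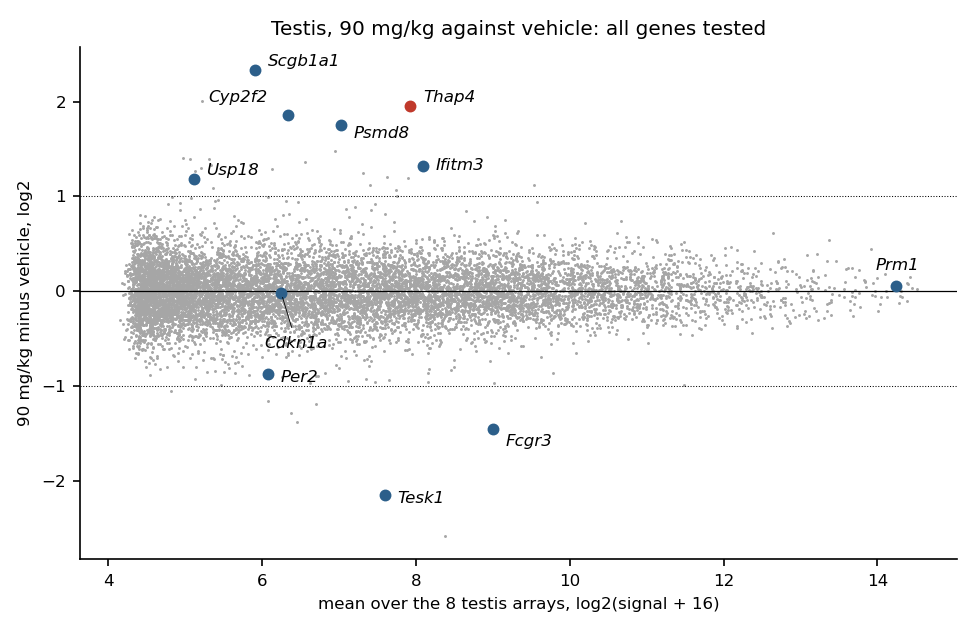
Each point is 1 of the 10713 genes tested in testis; the horizontal axis is the mean log2(signal + 16) over the 8 arrays and the vertical axis the log2 difference of 90 mg/kg from vehicle, with dotted lines at 1 and -1. The red point, Thap4 at 1.95, is the gene that passed the test; the blue points are named genes that did not pass.

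Fcgr3, which encodes a low-affinity receptor for immunoglobulin G on macrophages and other myeloid cells, had the second smallest adjusted p. Its signals were 792.6 and 784.2 after vehicle, 735.0 and 949.3 at 30 mg/kg, 341.4 and 326.8 at 60 mg/kg, and 303.6 and 253.2 at 90 mg/kg. The 4 arrays at 60 and 90 mg/kg lay below the 4 at vehicle and 30 mg/kg with no overlap. Against vehicle the log2 difference at 90 mg/kg was -1.46 ± 0.17 and missed the threshold (limma adjusted p = 0.075). Against 30 mg/kg it passed, and Fcgr3 fell by 1.54 on the log2 scale (limma adjusted p = 0.0482). Only Fcgr3 and Thap4 were called in that contrast, 0.0187% of the genes tested. In whole-testis RNA, fewer cells of a type and less RNA per cell cannot be told apart.

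The other markers of macrophages and myeloid cells lay on both sides of vehicle. Of 17 members tested, Fcgr3 among them, 10 lay above 0 and 7 below, 0 were called, and the median was 0.09 on the log2 scale. C1qa, a complement subunit made by resident macrophages, read 16.8 and 17.2 after vehicle and 24.9 and 30.6 at 90 mg/kg (log2 0.40 ± 0.15). In spleen, where Fcgr3 read 609.6 and 926.3 after vehicle, the 90 mg/kg arrays read 745.1 and 1015.7. The testis effect minus the spleen effect was -1.66 on the log2 scale, and the test of that difference missed the threshold (limma adjusted p = 0.0524). In liver Fcgr3 read 145.6 and 178.3 after vehicle and 138.4 and 152.3 at 30 mg/kg. Below those arrays without overlap, it read 115.9 and 105.3 at 60 mg/kg and 86.3 and 116.2 at 90 mg/kg. The testis effect minus the liver effect was -0.85 (limma adjusted p = 0.485). In lung the vehicle arrays read 329.8 and 241.6 and the 90 mg/kg arrays 269.8 and 336.5. Fcgr3 is read by 1 probe on the array. In the 90 minus 30 mg/kg contrast the call of Fcgr3 was lost when any 1 of the 8 arrays was left out: 0 genes were called lower in each case. Higher calls numbered 2 without 30 mg/kg replicate 1, 1 without 90 mg/kg replicate 2, and 0 without any of the other 6 arrays.

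Beyond these genes the 2 groups were close. Of the 10713 genes, 810 had an unadjusted p under 0.05 (7.56%), 415 of them higher and 395 lower at 90 mg/kg. The third smallest adjusted p was 0.647. Differences above 2-fold numbered 33, of which 25 were higher and 8 lower. The 95% confidence interval of the difference lay within 2-fold either way for 9999 genes, or 93.3%, and the median interval reached 0.41 on the log2 scale to either side. At 60 mg/kg limma called 0 genes, with 980 at an unadjusted p under 0.05 (9.15%) and a smallest adjusted p of 0.513. At 30 mg/kg it called 0 genes, with 476 at an unadjusted p under 0.05 (4.44%) and a smallest adjusted p of 0.923. These comparisons share the vehicle arrays. Without vehicle replicate 2 the genes at an unadjusted p under 0.05 numbered 1674 at 90 mg/kg, 1814 at 60 mg/kg and 1400 at 30 mg/kg. The 60 mg/kg number was 626 and 612 without its replicates 1 and 2 in turn. Leaving out single arrays gave 1 call at 60 mg/kg without vehicle replicate 1 or without either 30 mg/kg array, and at 30 mg/kg 1 call without vehicle replicate 1 or 30 mg/kg replicate 1 and 5 without 30 mg/kg replicate 2.

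Among the genes with the smallest unadjusted p after Thap4 and Fcgr3, chosen after their values were seen, none passed the adjusted test (limma adjusted p = 0.647 for each). Ctsh, the lysosomal protease cathepsin H, read 78.9 and 66.6 after vehicle and 182.8 and 205.4 at 90 mg/kg. Its 4 arrays at the lower doses read between 140.8 and 233.6, so all 6 treated arrays lay above both vehicle arrays. Yipf2, a Golgi membrane protein, read 39.7 and 47.1 after vehicle and 92.0 and 82.9 at 90 mg/kg. Pttg1, the securin that keeps sister chromatids from separating before anaphase, read 130.5 and 70.5 after vehicle and 30.5 and 38.8 at 90 mg/kg. Its log2 difference was -1.16 ± 0.26, and no treated array reached the lower vehicle value. Smdt1, a subunit of the mitochondrial calcium uniporter, read 360.8 and 359.7 after vehicle and 600.4 and 584.4 at 90 mg/kg.

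**Figure D2:**
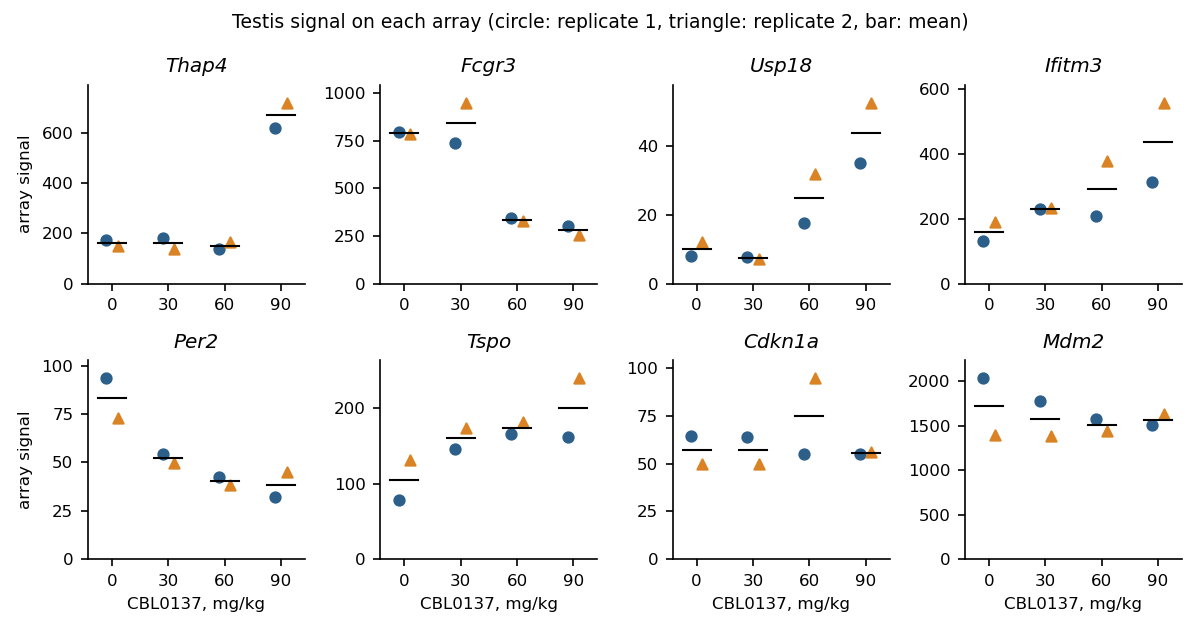
Array signal on a linear axis from 0 for 8 genes in testis, by dose of CBL0137 with 0 as vehicle; circles are replicate 1, triangles replicate 2 and bars the mean of both. Thap4 is high at 90 mg/kg alone, Fcgr3 is low at 60 and 90 mg/kg, and the 90 mg/kg arrays of Cdkn1a and Mdm2 lie within the range of the vehicle arrays.

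Interferon-stimulated genes lay mostly above vehicle, but none passed the test. Of 33 members tested, 25 had a difference above 0 at 90 mg/kg, where 48.4% of all genes did, and 21 had both 90 mg/kg arrays above both vehicle arrays, where 18.8% of all genes did. Both arrays lay below in 2 members, against 19% of all genes. An unadjusted p under 0.05 was reached by 10 members in the higher direction, against 3.87% of all genes, and by 1 in the lower, against 3.69%. The median difference of the list was 0.49 at 90 mg/kg, 0.22 at 60 mg/kg and 0.05 at 30 mg/kg on the log2 scale, where the median of all genes was -0.01 at 90 mg/kg. Without 90 mg/kg replicate 2 the median was 0.26. These counts cover members that passed the filter on low signals, and 7 of the 33, 5 of the 21 among them, had no vehicle array above background and so passed through treated arrays. Of all genes, 532 passed in that way, 241 of them with both 90 mg/kg arrays above both vehicle arrays.

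Usp18, the protease that removes ISG15 from proteins and limits interferon signalling, had the smallest unadjusted p of the list. Its signals were 8.0 and 12.1 after vehicle, 7.6 and 7.2 at 30 mg/kg, 17.7 and 31.8 at 60 mg/kg, and 35.0 and 52.5 at 90 mg/kg. All 4 arrays at 60 and 90 mg/kg lay above the other 4. The log2 difference was 1.19 ± 0.21 at 90 mg/kg (limma adjusted p = 0.647). Ifitm3, a membrane protein that blocks entry of viruses, read 130.7 and 190.2 after vehicle, 229.4 and 233.2 at 30 mg/kg, 207.1 and 376.6 at 60 mg/kg, and 312.6 and 558.3 at 90 mg/kg. Its log2 difference was 1.32 ± 0.33 (limma adjusted p = 0.647), and every treated array lay above both vehicle arrays.

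Other antiviral genes were dim in testis. Isg15, the ubiquitin-like modifier, read 4.6 and 7.8 after vehicle, both not above background, and 9.0 and 35.1 at 90 mg/kg, at least 1.46-fold higher (limma adjusted p = 0.647). Here and in other folds given as at least, the vehicle group enters at no less than its arrays' lowest signal above background. Ifit2, an inhibitor of viral translation, read -6.8 and 11.5 after vehicle and 23.3 and 28.1 at 90 mg/kg. Ifit3, its partner, read 14.1 and 22.0 after vehicle and 22.8 and 93.6 at 90 mg/kg. Psmb9, an immunoproteasome subunit, read 5.3 and 1.3 after vehicle and 13.7 and 28.5 at 90 mg/kg. Mx2, an antiviral GTPase, read 17.9 and 21.2 after vehicle and 17.5 and 16.5 at 90 mg/kg, and Oasl1, a relative of the antiviral nucleotide synthases, read 11.5 and 12.9 against -1.0 and 7.0.

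The second replicate was the higher one for most of these genes at the upper doses. At 90 mg/kg, 27 of 33 members had the higher signal on replicate 2, with a median difference between replicates of 0.28 on the log2 scale. At 60 mg/kg it was 29 of 33 with a median of 0.46, and after vehicle 21 of 33 with a median of 0.13. Over all genes the share was 51.3% at 90 mg/kg, 47.8% at 60 mg/kg and 48.0% after vehicle. The summed signal of the 45 list genes on the array was 3010.0 and 3047.4 after vehicle and 3404.0 and 4400.7 at 90 mg/kg. The summed signal of lung markers was 167.4 and 620.0 on the 60 mg/kg replicates and 294.2 and 297.9 on those at 90 mg/kg. With the estimated liver, lung and spleen shares subtracted, the list median was 0.47.

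The promoters of Ifitm3 and Ifit3 show the sequence shared by many of its members, the interferon-stimulated response element, searched as GAAA, any 2 bases and GAAA again, on either strand with overlapping matches counted. The windows run from 250 bases before to 50 after the RefSeq start (GRCm38.p6), at chr7:141010695-141010994 on the minus strand for Ifitm3 and chr19:34583279-34583578 on the plus strand for Ifit3, with matches in capitals.
Ifitm3: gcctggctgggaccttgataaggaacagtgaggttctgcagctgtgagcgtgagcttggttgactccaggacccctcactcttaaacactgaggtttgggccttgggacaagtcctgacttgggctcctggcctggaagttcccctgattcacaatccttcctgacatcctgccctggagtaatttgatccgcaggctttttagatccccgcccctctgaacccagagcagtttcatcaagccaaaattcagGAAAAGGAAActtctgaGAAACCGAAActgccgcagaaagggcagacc
Ifit3: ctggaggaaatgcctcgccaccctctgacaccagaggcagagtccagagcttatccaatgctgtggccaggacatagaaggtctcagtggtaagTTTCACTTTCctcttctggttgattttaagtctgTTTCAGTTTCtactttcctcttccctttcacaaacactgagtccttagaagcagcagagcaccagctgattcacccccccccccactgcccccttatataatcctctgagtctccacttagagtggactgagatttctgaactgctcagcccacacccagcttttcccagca
Each window holds 2 matches. Of the 26 list members with a promoter in the table, 13 hold at least 1 match (50%), against 3.99% of all 27025 genes with a promoter and 3.49% of the 8700 tested ones. A match describes these letters and shows no binding.

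Targets of p53, the transcription factor that answers DNA damage, lay on both sides of vehicle in testis. Of 31 members tested, 14 lay above 0 and 17 below, 0 were called, and an unadjusted p under 0.05 was reached by 0 in the higher direction, against 3.87% of all genes, and by 3 in the lower, against 3.69%. Their median difference was -0.02 on the log2 scale. Cdkn1a, the cell cycle inhibitor p21, read 64.5 and 49.8 after vehicle and 55.1 and 56.3 at 90 mg/kg. The 90 mg/kg arrays lay between the vehicle arrays, and the 95% confidence interval of the log2 difference ran from -0.53 to 0.49. Mdm2, the ubiquitin ligase that restrains p53, read 2034.5 and 1400.7 after vehicle and 1505.3 and 1630.1 at 90 mg/kg, with an interval from -0.58 to 0.36.

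The p53 target with the smallest p depended on its probe. Tnfrsf10b, a death receptor, read 194.2 and 192.5 after vehicle and 125.5 and 99.3 at 90 mg/kg by its brightest testis probe (log2 -0.71 ± 0.16). By the probe that is brightest over all 32 arrays its difference was 0.54, so no direction is given. Pidd1, an adaptor of the p53 pathway, read 10.9 and 7.8 after vehicle and -0.7 and -1.5 at 90 mg/kg, close to background. Among genes of DNA repair and checkpoints, 6 of 25 lay above 0 and 19 below, where 51.6% of all genes lay below 0. Both 90 mg/kg arrays lay below both vehicle arrays in 10 and above in 1, against 19% and 18.8% of all genes. Of the 25, 0 were called, and the median was -0.13. Atm, the kinase that signals DNA breaks, read 71.1 and 69.0 after vehicle and 40.6 and 39.2 at 90 mg/kg (log2 -0.62 ± 0.14, limma adjusted p = 0.647). Gadd45a, a DNA damage-inducible gene, read 38.5 and 37.0 after vehicle and 50.4 and 56.9 at 90 mg/kg. Without vehicle replicate 1 the median of the repair list was -0.02.

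**Figure D3:**
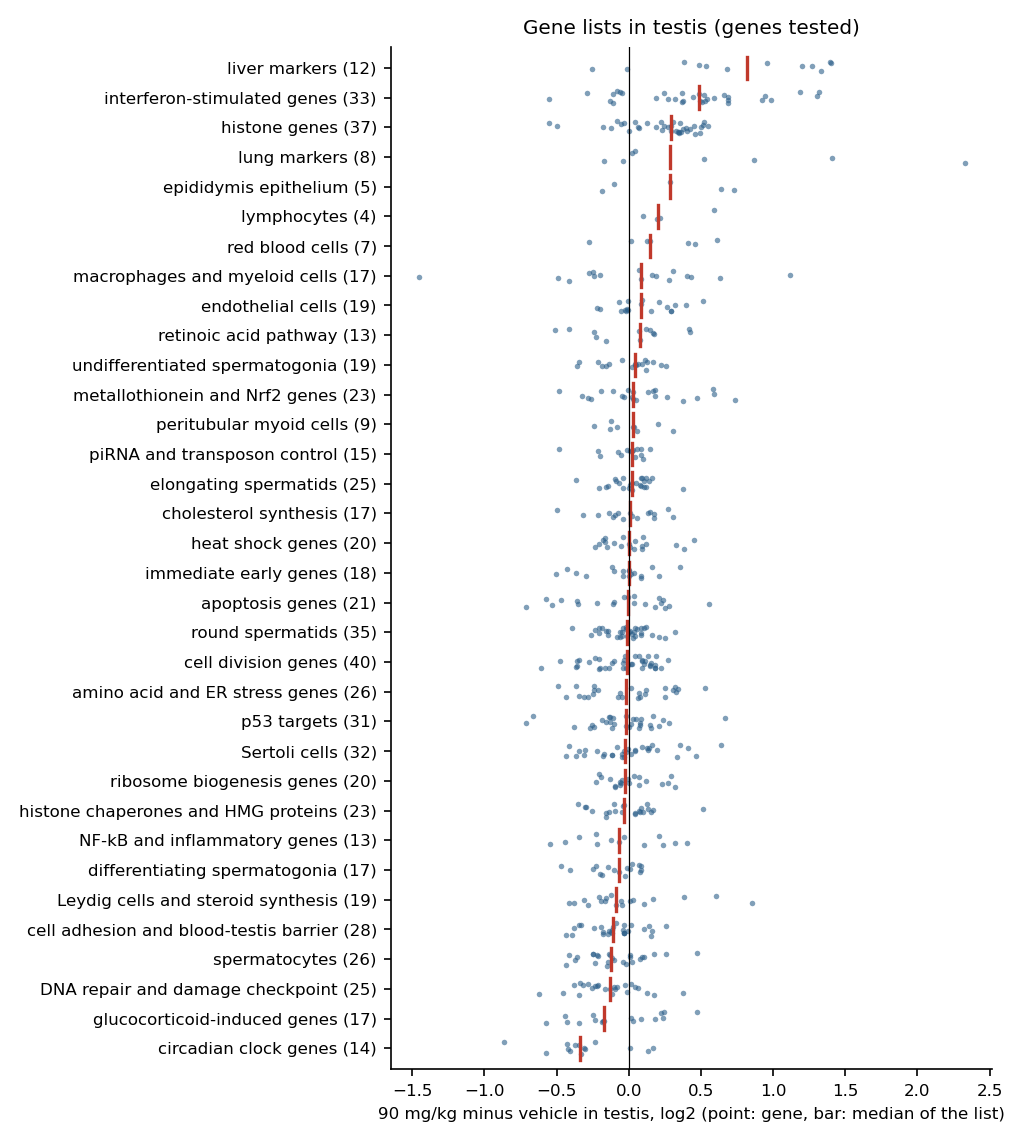
Log2 difference of 90 mg/kg from vehicle in testis for every tested member of the 34 gene lists, with the number of members in brackets; points are genes and red bars the median of the list. Medians run from -0.34 for circadian clock genes to 0.82 for liver markers, and the germ cell lists lie near 0.

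Germ cell genes of all stages had median differences near 0. The medians were 0.05 for 19 genes of undifferentiated spermatogonia, -0.07 for 17 of differentiating spermatogonia, -0.12 for 26 of spermatocytes, -0.01 for 35 of round spermatids and 0.02 for 25 of elongating spermatids. In each of these 5 lists 0 genes were called. Of the 26 spermatocyte genes, 17 lay below 0 and 9 above, with both 90 mg/kg arrays below both vehicle arrays in 10 and above in 3, against 19% and 18.8% of all genes. Of the 17 genes of differentiating spermatogonia, both arrays lay below in 6 and above in 0. Prm1, a protamine that packs sperm DNA, read 19722.2 and 18543.5 after vehicle and 19441.8 and 20225.2 at 90 mg/kg. The interval of its log2 difference ran from -0.27 to 0.38. Tnp1, a transition protein between histones and protamines, read 15661.8 and 15071.8 after vehicle and 16951.9 on both 90 mg/kg arrays.

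Within the stages a few genes stood apart in unadjusted terms, and none passed (limma adjusted p = 0.647 for each of the next 6). Dazl, an RNA-binding protein needed for germ cell development, read 734.1 and 684.5 after vehicle and 479.5 and 537.8 at 90 mg/kg (log2 -0.47 ± 0.14). Smc1b, a cohesin of meiosis, read 1216.9 and 1012.1 after vehicle and 780.6 and 850.7 at 90 mg/kg. Ccna1, the cyclin of meiotic divisions, read 1109.9 and 915.8 after vehicle and 1281.8 and 1535.4 at 90 mg/kg, so these 2 spermatocyte genes lay on opposite sides of vehicle. Prm3, a gene of the protamine cluster, read 2005.5 and 2079.8 after vehicle and 2639.4 and 2681.1 at 90 mg/kg, and Cabyr, a protein of the sperm tail, read 3419.6 and 3002.7 against 2550.5 and 2412.7. Asz1, which acts in the piRNA pathway against transposons, read 688.6 and 774.6 after vehicle and 516.9 and 516.2 at 90 mg/kg. Acrv1, an acrosomal protein of round spermatids, read 4448.7 and 4821.0 after vehicle and 4655.2 and 3704.7 at 90 mg/kg, which overlap.

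Cell division genes, most of which the testis expresses in its spermatogonia and spermatocytes, were also close to vehicle. Of 40 members, 19 lay above 0 and 21 below, 0 were called, and the median was -0.02 on the log2 scale. Mcm6, a subunit of the replicative helicase, read 186.0 and 234.7 after vehicle and 151.9 and 139.5 at 90 mg/kg (log2 -0.48 ± 0.16, limma adjusted p = 0.647). Prc1, which bundles microtubules in the dividing cell, read 3518.0 and 2932.1 after vehicle and 2668.0 and 2342.1 at 90 mg/kg.

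Markers of the somatic cells of the testis also had list medians near 0. Sertoli cell genes had a median difference of -0.03 (32 tested, 0 called), Leydig cell and steroid synthesis genes -0.09 (19 tested, 0 called), and peritubular myoid cell genes 0.03 (9 tested, 0 called). Star, the carrier that brings cholesterol into mitochondria for steroid synthesis, read 37.3 and 37.9 after vehicle and 20.4 and 28.3 at 90 mg/kg (log2 -0.42 ± 0.24, limma adjusted p = 0.672). Tspo, a mitochondrial membrane protein of steroid-making cells, read 78.3 and 131.0 after vehicle and 161.4 and 239.7 at 90 mg/kg (log2 0.86 ± 0.25, limma adjusted p = 0.647). Cyp17a1, the enzyme that leads to androgens, read 7597.6 and 7497.8 after vehicle and 4473.4 and 7497.8 at 90 mg/kg, which overlap. Genes of cell adhesion and the blood-testis barrier had a median of -0.11, with 22 of 28 below 0, where 51.6% of all genes lay, and 0 called.

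Clock genes and histone genes had list medians away from 0, again with 0 genes called. Of 14 circadian clock genes, 11 lay below 0 where 51.6% of all genes did, and 8 had both 90 mg/kg arrays below both vehicle arrays, where 19% of all genes did. The list median was -0.34 at 90 mg/kg, -0.37 at 60 mg/kg and -0.16 at 30 mg/kg. Per2, a repressor within the clock, read 93.6 and 73.0 after vehicle, 54.6 and 49.8 at 30 mg/kg, 42.5 and 38.4 at 60 mg/kg, and 32.3 and 44.8 at 90 mg/kg. All 6 treated arrays lay below both vehicle arrays (log2 -0.87 ± 0.18 at 90 mg/kg, limma adjusted p = 0.647). Per1, its relative, read 767.1 and 424.7 after vehicle and 398.6 and 361.2 at 90 mg/kg. The labels give the interval from dose to collection but no clock time. Without vehicle replicate 1 the list median was -0.18, and without 90 mg/kg replicate 2 it was -0.20.

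Of 37 histone genes, 30 lay above 0, where 48.4% of all genes did, and 13 had both 90 mg/kg arrays above both vehicle arrays, where 18.8% of all genes did. The list median was 0.29. H2bc14, which encodes an H2B histone, read 423.5 and 622.0 after vehicle and 746.6 and 716.8 at 90 mg/kg (log2 0.50 ± 0.19, limma adjusted p = 0.647). The vehicle pair itself differed: 31 of 37 histone genes were higher on vehicle replicate 2, with a median difference of 0.45. Without vehicle replicate 1 the list median was 0.05, and without vehicle replicate 2 it was 0.51. Histone genes are near-identical copies, so a probe may read several of them.

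Stress genes showed single members apart and list medians near 0. The medians were 0.00 for 20 heat shock genes, -0.02 for 26 amino acid and endoplasmic reticulum stress genes, 0.03 for 23 metallothionein and Nrf2 genes and -0.01 for 21 apoptosis genes, with 0 called in each. Ddit3, a transcription factor of the integrated stress response, read 404.8 and 418.0 after vehicle and 596.9 and 601.3 at 90 mg/kg (log2 0.53 ± 0.14, limma adjusted p = 0.647). Gstp1, a glutathione transferase, read 274.6 and 371.9 after vehicle and 561.1 and 527.8 at 90 mg/kg. Bad, a protein that promotes apoptosis, read 294.3 and 359.2 after vehicle and 456.3 and 514.4 at 90 mg/kg. Casp1, the inflammasome protease, read 171.8 and 149.6 after vehicle and 100.8 and 88.2 at 90 mg/kg, and its substrate Il18 read 37.3 and 29.0 against 14.6 and 13.4. Both had no overlap between the groups, and neither passed (limma adjusted p = 0.647).

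Transcripts of lung and liver were present on some testis arrays, and replicates of a group differed in them. Scgb1a1, the secreted protein of airway club cells, read -4.5 and -1.2 after vehicle, 760.7 and 3.2 at 30 mg/kg, 3.5 and 341.8 at 60 mg/kg, and 60.7 and 68.3 at 90 mg/kg, at least 3.30-fold higher at 90 mg/kg than after vehicle (limma adjusted p = 0.702). Apoa1, an apolipoprotein made by liver, read -2.6 and 0.7 after vehicle and 38.3 and 12.6 at 90 mg/kg, with 375.3 on 30 mg/kg replicate 1. The highest values of both genes were thus on single arrays at lower doses. Of the 19 liver markers on the array, 12 passed the filter on low signals, 5 of them with no vehicle array above background and so through treated arrays, and no count of directions is given for them. The summed signal of the 19 liver markers was 201.3 and 319.6 after vehicle and 798.8 and 421.1 at 90 mg/kg. For the 15 lung markers it was 248.9 and 161.7 after vehicle and 294.2 and 297.9 at 90 mg/kg.

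Expressed as a share of the level in the organ itself, these amounts were small. The median over 222 liver-enriched probes was 0.018% and 0.028% of the liver vehicle level on the testis vehicle arrays, 0.082% and 0.056% at 90 mg/kg, and 0.306% on 30 mg/kg replicate 1. These probes were required to be below the threshold on 30 mg/kg replicate 2 and 60 mg/kg replicate 1, whose shares are low for that reason. Over 57 lung-enriched probes it was 0.097% and 0.08% after vehicle, 0.154% and 0.079% at 90 mg/kg, 0.383% on 30 mg/kg replicate 1 and 0.269% on 60 mg/kg replicate 2. Subtracting the liver, lung and spleen shares, an alternative added after seeing the data, left the count at 1 call, with Thap4 at 1.95 on the log2 scale. Cyp2f2, a cytochrome P450 of club cells that was bright in liver as well, at 8584.0 and 8108.9 after vehicle against 15367.8 and 14952.6 in lung, was highest at 90 mg/kg instead: it read 49.5 and 31.4 after vehicle, 112.1 and 28.1 at 30 mg/kg, 27.3 and 41.7 at 60 mg/kg, and 200.6 and 172.8 at 90 mg/kg. Its log2 difference was 1.86 ± 0.42 (limma adjusted p = 0.647).

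**Figure D4:**
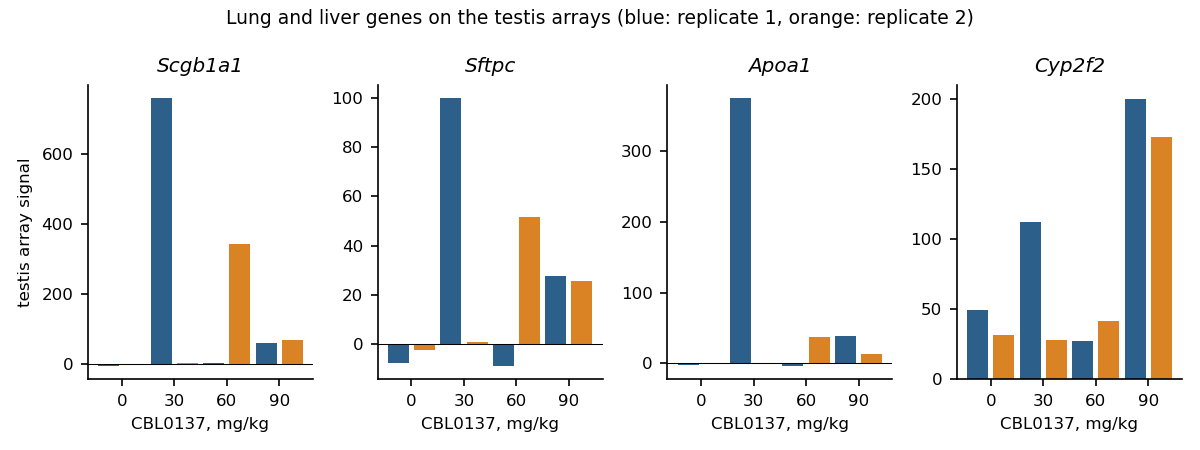
Testis array signal for the lung genes Scgb1a1 and Sftpc, Cyp2f2, which is bright in lung and liver, and the liver gene Apoa1, by dose with 0 as vehicle; blue bars are replicate 1 and orange bars replicate 2. Scgb1a1, Sftpc and Apoa1 are highest on 30 mg/kg replicate 1, while Cyp2f2 is highest on the 90 mg/kg arrays.

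The test of the difference between organs showed where the testis departed from the spleen. Of 9483 genes measured in both, 468 differed in their 90 mg/kg effect (4.94%), 335 with the higher effect in testis (3.53%) and 133 with the lower (1.4%). Interferon-stimulated genes made up part of the second set: for 15 of 33 the testis effect was lower, and the list medians were 0.49 in testis and 1.41 in spleen. Usp18, with the testis signals above, read 200.4 and 208.5 in spleen after vehicle and 2976.1 and 3026.5 at 90 mg/kg. The testis effect minus the spleen effect was -2.59 on the log2 scale (limma adjusted p = 0.0146). Usp18 and several other members were dim in testis, where the scale used understates differences. How far this widened the gap between organs, here and for liver and lung, was not tested. Ifitm3 missed the threshold, its effect being 0.17 higher in testis with an interval from -0.60 to 0.93 (limma adjusted p = 0.857). Of other genes named above that did not pass in testis alone, some passed this test of testis against spleen. The difference was -0.75 for Atm (limma adjusted p = 0.048), -1.57 for Il18 (limma adjusted p = 0.0307) and 1.85 for Cyp2f2 (limma adjusted p = 0.0465). For the germ cell genes Prm3 and Acrv1 it was 2.65 (limma adjusted p = 0.00993) and 2.62 (limma adjusted p = 0.0166), and for Prc1 2.08 (limma adjusted p = 0.0164). In spleen Prm3 read 99.2 and 267.2 after vehicle and 30.7 and 14.0 at 90 mg/kg. Acrv1 read 194.3 and 316.0 against 52.3 and 5.9. The spleen arrays carried testis transcripts, in the shares given below, and these 2 differences cannot be told apart from a change in those shares.

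Cell division and germ cell genes were among those with the higher effect in testis. Of all genes tested, 3.53% had the higher effect in testis and 1.4% the lower. The testis effect was higher for 15 of 34 genes of round spermatids, 7 of 23 of elongating spermatids and 3 of 20 of spermatocytes, and lower for 0 in each list. These germ cell counts cannot be told apart from a change in the shares of testis transcripts on the spleen arrays, given below. For 17 of 39 cell division genes the effect was higher in testis, with list medians of -0.01 in testis and -1.54 in spleen, and 0 were lower. Red blood cell genes had 3 of 7 higher in testis, among them Klf1, a transcription factor of red cell precursors, which read 3344.7 and 1562.0 in spleen after vehicle and 57.3 and 221.9 at 90 mg/kg. In testis Klf1 read 19.8 and 18.7 after vehicle and 11.8 and 87.8 at 90 mg/kg, which overlap. The spleen arrays also carried testis transcripts, with median shares of the level in testis itself of 3.02% and 5.58% after vehicle and 1.39% and 0.43% at 90 mg/kg over 417 probes bright in testis and not above background in liver. Genes with at least 10 times the signal in testis that they had in liver made up 230 of the 335 genes with the higher effect in testis and 3 of the 133 with the lower, against 13.2% of those tested. With them left out, an alternative added after seeing the data, 143 genes differed, 68 higher and 75 lower.

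The count against spleen moved with single arrays. It was 84 without testis vehicle replicate 1, 250 without testis vehicle replicate 2, 66 without testis 90 mg/kg replicate 1, 95 without testis 90 mg/kg replicate 2, 304 without spleen vehicle replicate 2 and 106 without spleen 90 mg/kg replicate 2. Without spleen 90 mg/kg replicate 1 it was 702.

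Against the liver, 47 of 9238 genes differed (0.509%), 22 with the higher effect in testis (0.238%) and 25 with the lower (0.271%). Cdkn1a, with the testis signals above, read 149.1 and 92.7 in liver after vehicle and 1179.7 and 1458.6 at 90 mg/kg. The testis effect minus the liver effect was -3.33 on the log2 scale (limma adjusted p = 0.000384), and it was the single member among the 28 p53 targets tested to differ. Of the 33 interferon-stimulated genes 0 differed, with a list median of 0.83 in liver. The count was 17 without testis vehicle replicate 1, 17 without testis 90 mg/kg replicate 1, 21 without testis 90 mg/kg replicate 2, 29 without liver vehicle replicate 2 and 140 without liver 90 mg/kg replicate 2.

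Against the lung, limma called 0 of 9287 genes, with 795 at an unadjusted p under 0.05 (8.56%) and a smallest adjusted p of 0.121. The interferon-stimulated list had medians of 0.49 in testis and 0.95 in lung, and the cell division list -0.01 and -0.52. The count was 1 without testis 90 mg/kg replicate 2, 1 without lung vehicle replicate 2, 4 without lung 90 mg/kg replicate 1 and 3 without lung 90 mg/kg replicate 2.

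**Figure D5:**
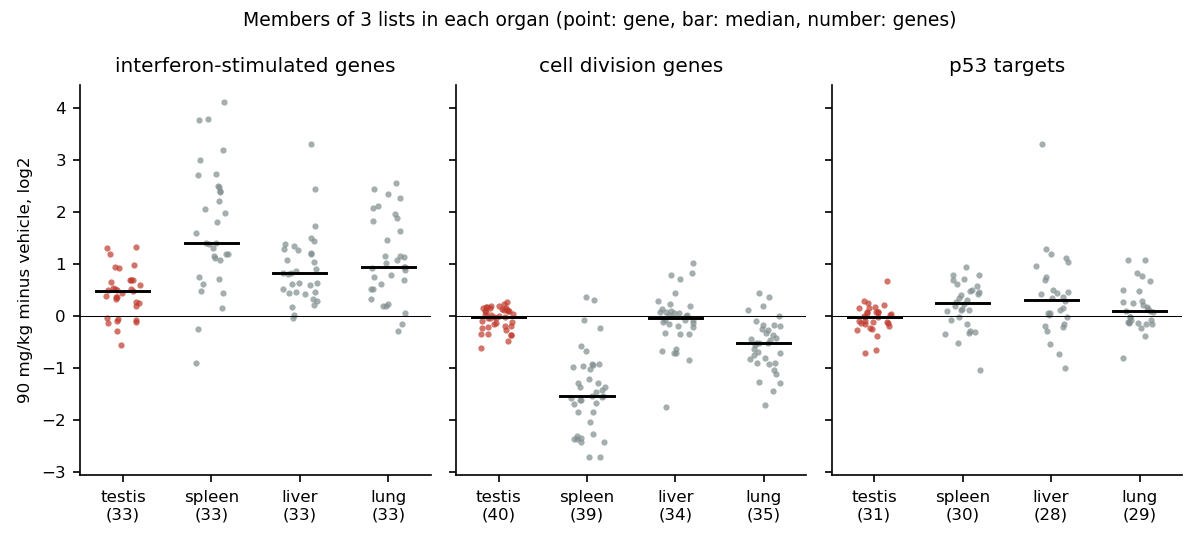
Log2 difference of 90 mg/kg from vehicle for the members of 3 gene lists in testis (red) and in spleen, liver and lung (grey); points are genes, bars medians, and the number of genes is under each organ. The medians for interferon-stimulated genes are 0.49 in testis and 1.41 in spleen, those for cell division genes -0.01 to -0.02 in testis and -1.54 in spleen, and the highest liver point among p53 targets is Cdkn1a. Several interferon-stimulated genes were dim in testis, where the scale understates differences.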

How the data were processed

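Total RNA of whole testis, spleen, liver and lung was extracted with TRIzol, labelled as biotinylated cRNA with the Ambion MessageAmp kit and hybridised to Illumina BeadChips, per the labels' protocols. The deposited intensity values were made in GenomeStudio according to the submitters' processing notes, which name no version in the sources used here. They show background subtraction and a common distribution over the 32 arrays: sorted values of the arrays departed by at most 1 and 22.0% to 22.5% lay below 0. A deposited table of non-normalized intensity values was used as a check for the 3 arrays whose columns could be matched by name (Spearman rho 1.0), and 61 of its columns were not used.

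Of 25697 probes, 23978 had 1 gene symbol, 0 several and 1719 none in the platform annotation. 23971 were matched to the reference gene table. Of the genes tested, 3879 had several probes. Values below 0 were set to 0, 16 was added and log2 taken. A model with dose as a factor was fitted to the 8 testis arrays (lmFit and eBayes of limma 3.58.1, R 4.3.3), two-sided, with Benjamini-Hochberg adjustment over all 10713 genes and calls at 0.05. Differences between organs were interaction contrasts in 1 fit of all 32 arrays, over genes above 8.3 on at least 2 arrays of both organs. The fit treated arrays of different organs as independent. The labels do not say whether 1 mouse gave several organs, and any such pairing was ignored. Liver, lung and spleen shares in testis used probes with a vehicle mean above 500 in the organ, over 5 times that of the other two, and a signal below 8.3 on testis arrays 30 mg/kg replicate 2 and 60 mg/kg replicate 1, chosen after seeing the data. Genes were called testis-enriched where the vehicle mean exceeded 100 in testis and was 10 times or more that in liver.

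The members, the 34 gene lists (986 genes, 862 on the array, 649 tested) and the rule for named genes were chosen with earlier results of these data known. The rule took called genes with no overlap between arrays, from each list up to 4 called members, else the 2 of smallest p, Cdkn1a, Mdm2, Isg15, Usp18, Stra8, Kit, Prm1 and Star where tested, and 5 called genes each way per organ contrast. Stra8 was not tested. Ctsh, Yipf2, Pttg1, Smdt1, Ifit2, Psmb9, Tnp1, Acrv1, Cyp17a1, Casp1, Il18, Tesk1, Psmd8, Scgb1a1, Apoa1, Cyp2f2, Stat2 and those of the other observations were named after their values were seen. The fit was tested on simulated data over 10713 genes with normally distributed noise, 100 genes changed by 1 and 100 by 2 on the log2 scale. It recovered 79% and 100% of them, with 17 false calls. With that many changed genes the adjusted cutoff is easier to pass than in the real comparison, so these shares do not carry over to it. Alternatives changed the filter, offset, normalization, probe, arrays in the fit, prior, replicate block and each array in turn. Sequences are from RefSeq (GRCm38.p6). Python 3.11.15, pandas 2.3.3 and matplotlib 3.10.9 were used.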

Additional observations from a re-analysis of the deposited data

Results flagged for a closer look

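Effects at 90 mg/kg that differed between testis and another organ by the test of the difference were singled out, with limma adjusted p under 0.05 in each case. Against spleen 468 genes differed and against liver 47. The log2 differences below are the testis effect minus the effect in the other organ.

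Against spleen the widest positive differences were 4.73 for Klf1, 4.22 for Slc38a5, an amino acid transporter, 4.18 for Mgst3, a microsomal glutathione transferase, 3.61 for Dmtn, a red cell membrane protein, and 3.18 for Abcg4, a lipid transporter. The testis effects of these 5 genes were 0.61, 0.09, 0.28, 0.75 and -0.24, and the spleen effects ran from -4.13 to -2.86. Klf1 in testis rested on 90 mg/kg replicate 2, and without it the testis effect was -0.34. The widest negative differences were -3.30 for Mx2, -3.25 for Irf7, the transcription factor that amplifies interferon production, -3.17 for Ifit3, -3.04 for Oasl1 and -2.92 for Plek, a protein of platelets and white cells. Irf7 read 632.3 and 727.7 in spleen at 90 mg/kg and 8.9 and 5.9 in testis. Oasl1 read 11.5 and 12.9 in testis after vehicle and -1.0 and 7.0 at 90 mg/kg, the latter both not above background. Abcg4, Irf7 and Plek also lay near background on the testis arrays, and Ifit3 and Mx2 were dim there. For such genes an effect on the scale used is understated.

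Against liver the widest positive differences were 3.78 for Aqp8, a water channel, 2.77 for Mfsd2a, a lipid transporter, 2.7 for Cyp2c55, a cytochrome P450, 2.40 for Aacs, an enzyme of ketone use for lipid synthesis, and 2.28 for Got1, an aminotransferase. Got1 lay near background in testis, at 9.0 and 12.3 after vehicle and 10.7 and 7.5 at 90 mg/kg. Aqp8 read 1020.5 and 1856.2 in liver after vehicle and 94.5 and 162.6 at 90 mg/kg. The widest negative differences were -3.33 for Cdkn1a, -2.75 for Hsd3b4, a steroid dehydrogenase, -2.74 for Marveld3, a tight junction protein, -2.60 for Bco1, which cleaves beta-carotene, and -2.36 for Ffar4, a fatty acid receptor. The testis effects of these 10 genes lay between -0.55 and 0.47 on the log2 scale.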

How the results depend on the processing

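The 90 mg/kg count, 1 as reported, was 0 with no detection filter, with all 32 arrays in 1 fit, with array weights and with the replicate block. It was 2 for genes with a mean signal above 50, with an offset of 50, with an intensity trend of the prior and with the vehicle and 90 mg/kg arrays only, and 3 with a floor at 16 in place of the offset. Leaving out 1 array in turn gave 0 to 1. The adjusted p of Thap4 ran from 0.00226 to 0.627 over 23 alternatives, 12 of which called it, while its log2 difference stayed between 1.77 and 2.06. Fcgr3 passed in 3 of its 23. Leaving out 1 array gave 0 to 1 calls at 60 mg/kg, 0 to 5 at 30 mg/kg and 0 to 2 for 90 minus 30 mg/kg, which was 0 with no detection filter and with the replicate block. The median of the interferon-stimulated genes was 0.26 with an offset of 50 and 0.26 to 0.59 with 1 array left out. For Tnfrsf10b the brightest probe over all 32 arrays gave 0.54 in place of -0.71. With 1 array left out, uncalled differences changed sign for Abcg4 (-0.559 to 0.083), Acrv1 (-0.321 to 0.007), Cdkn1a (-0.17 to 0.12), Got1 (-0.179 to 0.005), Klf1 (-0.34 to 1.56), Mdm2 (-0.37 to 0.16), Piwil1 (-0.428 to 0.008) and Stat2 (-0.40 to 0.89). For spleen the count was 747 with an offset of 50, 19 with the 8 arrays of both organs only, 258 with the replicate block, 143 without testis-enriched genes and 66 to 702 with 1 array left out. For liver it was 77, 9, 34 with the block, and 17 to 140; for lung 1, 6, 0 with the block, and 0 to 4. The causes were not tested.

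The labels give the arrays replicate numbers. Deviations of same-numbered testis arrays from their group means correlated at -0.171 to 0.16 over the 6 pairs of groups. That check covers testis alone and cannot show whether equal numbers mark anything shared, within testis or across organs. The block changed the counts as given. Cyclic loess, median centring, the choice of probe and subtraction of organ shares left the 90 mg/kg count at 1. Signal over background limits dim genes, and 2 arrays a group limit all.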

Other observations

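Some probes differed widely between the replicates of a group. Among the 10713 genes, 15 had a gap of more than 4-fold between neighbouring testis arrays in order of signal, and in all 15 the replicates of at least 1 group lay on both sides of the gap. In 8 of them 1 array stood apart, and in 7 both sides held 2 or more arrays. Thap4, with a gap of 1.68 on the log2 scale, had the widest gap of the 447 genes whose gap separated whole groups.

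Cfap69, a protein of the sperm flagellum, read 1930.2 and 2298.1 after vehicle, 45.1 and 1865.6 at 30 mg/kg, 29.9 and 35.5 at 60 mg/kg, and 52.9 and 1823.2 at 90 mg/kg. Cops8, a subunit of the COP9 signalosome, read 282.0 on 60 mg/kg replicate 2 and 279.5 on 90 mg/kg replicate 2, and at most 4.2 on the other 6 testis arrays. Psmd8, a proteasome subunit, read 892.5 on 90 mg/kg replicate 1 and 57.7 to 106.5 on the other 7. Leaving out 90 mg/kg replicate 2 called Psmd8 and leaving out vehicle replicate 1 called Tesk1.

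Cops8 and Pnrc2 can be followed across organs. In liver and lung Cops8 was also high on 60 mg/kg replicate 2, at 191.0 and 208.5, and in spleen on 60 mg/kg replicate 1, at 214.3. In those 3 organs both 90 mg/kg arrays were high, at 173.3 to 254.0. Over the 4 organs Cops8 was high on 11 of 16 arrays at 60 and 90 mg/kg. It read at most 9.4 on the other 5, and at most 16.8 on the 16 vehicle and 30 mg/kg arrays. These numbers count arrays and not mice, and a dose effect on Cops8 across organs was not tested. Pnrc2, a coactivator of nuclear receptors, read 232.0 and 17.2 in testis, 373.4 and 60.9 in liver and 512.4 and 55.5 in lung on replicates 1 and 2 at 30 mg/kg, while in spleen it read 81.1 and 1160.4. At 90 mg/kg it read 210.3 and 203.2 in testis, 413.5 and 54.4 in liver, 516.4 and 105.0 in lung and 1129.1 and 74.1 in spleen. The labels do not say whether equal numbers in different organs mark the same mouse.

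H2-Ab1, a class II histocompatibility gene, has 4 probes that do not all agree. One read 15.0 on vehicle replicate 1 and 1.9 on 60 mg/kg replicate 2, and 692.0 to 886.3 on the other 6 testis arrays. Another also had its lowest values on those arrays, at 224.8 and 424.5. So did a further probe, at 33.6 and 81.3, against 114.0 to 178.4 on the other 6. The dimmest probe on vehicle replicate 2 departed from these, with its highest value on 60 mg/kg replicate 2, at 98.8. These genes were chosen after their values were seen, and the cause was not tested.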
